A study of Mus musculus with 29 samples.

Results

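The Dlx genes are 6 mouse homeobox genes, Dlx1 to Dlx6, that stand in 3 pairs on chromosomes 2, 11 and 6. They were taken by name from the 20558 protein-coding genes that lie on the chromosomes analysed here, at their positions in RefSeq on mm10. Their gene identifiers there are 13390 for Dlx1 and 13392 to 13396 for Dlx2 to Dlx6. Each pair was examined with 200 kb on each side. The study profiled histone H2A monoubiquitinated at lysine 119 (here H2Aub) and the histone mark H3K27me3 in mouse oocytes and embryos by CUT&RUN, in which an antibody-tethered nuclease releases the DNA around a mark. Its 29 libraries fall into 16 groups of 1 to 3. What was analysed here is 1 segmentation made for the whole series, in which each stretch of chromosomes 1 to 19 carries an H2Aub type from 1 to 5.

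Of the 29 libraries, 24 measured H2Aub and 5 H3K27me3. Wild-type H2Aub covered 8 stages in 16 libraries, from germinal vesicle and metaphase II oocytes through the zygote, the 2-cell and 4-cell embryo and the morula to the inner cell mass and the epiblast of embryonic day 6.5. Germinal vesicle oocytes labelled wild-type carried floxed Eed, labelled Eed (fl/fl), on a B6/129 mixed background. Wild-type 4-cell and morula embryos and 2 of the 3 wild-type 2-cell libraries came from such mothers and wild-type PWK fathers. Metaphase II oocytes were wild-type B6/DBA, and the remaining wild-type embryos had B6/DBA mothers and PWK fathers. Another 6 H2Aub libraries, from germinal vesicle oocytes, 4-cell embryos and morulae, lacked maternal Eed, which Polycomb repressive complex 2 needs to place H3K27me3. They were labelled Gdf9-Eed (fl/fl), Gdf9 being a gene active in growing oocytes, on the B6/129 mixed background and for embryos with wild-type PWK fathers. The last 7 libraries were 6 of B6/DBA x PWK 4-cell embryos, H2Aub or H3K27me3, labelled PR-DUB (CTR) or PR-DUB (OE), and 1 of H3K27me3 in wild-type B6/DBA germinal vesicle oocytes. A library pooled 1 to 300 oocytes or embryos where the number is labelled. The labels do not say which of these libraries the types were made from. The types carry no key and no level, and no library has a value of its own. The depth is unknown, replicate error cannot be given, and differences between stages or genotypes at the Dlx genes were not analysed here.

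Dlx proteins are homeodomain transcription factors, relatives of fly Distal-less. In each mammalian pair the genes point towards each other and share enhancers that lie between and around them. Dlx1, Dlx2, Dlx5 and Dlx6 act in forebrain interneurons and in the jaw skeleton, Dlx5 and Dlx6 also in the limb, and Dlx3 in placenta, hair and teeth. H2Aub is laid down by Polycomb repressive complex 1 and H3K27me3 by Polycomb repressive complex 2, and in many cell types both cover the CpG-rich starts of silent developmental genes. For that reason the promoters are shown first.

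RefSeq promoters on GRCm38.p6, the assembly that mm10 names, were found for 2 of the 6 Dlx genes, Dlx1 and Dlx2, and for 3 of the 4 noncoding genes named after Dlx genes. No entry was found for Dlx3, Dlx4, Dlx5, Dlx6 and Dlx1as. The 250 bases before the start site of Dlx1 and Dlx2 are given 5′ to 3′ with each CpG in capitals, because they show 2 CpG-rich starts inside 1 segment.
Dlx1, chr2:71529195-71529444, plus strand: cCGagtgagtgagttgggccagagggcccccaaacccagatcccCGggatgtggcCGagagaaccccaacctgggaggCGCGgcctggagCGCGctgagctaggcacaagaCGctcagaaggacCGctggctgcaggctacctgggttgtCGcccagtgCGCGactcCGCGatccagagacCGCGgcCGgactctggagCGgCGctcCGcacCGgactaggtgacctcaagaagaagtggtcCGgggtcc
Dlx2, chr2:71546755-71547004, minus strand: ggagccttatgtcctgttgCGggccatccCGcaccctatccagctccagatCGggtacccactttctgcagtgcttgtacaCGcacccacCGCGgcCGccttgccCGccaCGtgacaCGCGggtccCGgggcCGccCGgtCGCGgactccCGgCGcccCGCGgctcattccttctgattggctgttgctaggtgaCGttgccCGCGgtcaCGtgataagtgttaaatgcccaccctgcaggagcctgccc
Dlx1 had 22 CpG and a GC content of 68.0%, and Dlx2 had 24 CpG and 66.4%. Of 20085 promoters of protein-coding genes, 20.2% held at least as many CpG as Dlx1 and 16.2% as many as Dlx2. The strands show that Dlx1 and Dlx2 face each other. The Dlx1 stretch lies inside the annotated gene, whose lower end is at 71528113.

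The noncoding gene Dlx6os1, known as Evf2, runs through Dlx6 and is known to regulate Dlx5 and Dlx6. It has 2 start sites in the table. They are shown, with each TAAT and its reverse complement ATTA in capitals, because they differ from Dlx1 and Dlx2 in base content while carrying the same type. TAAT is the core that homeodomains bind.
Dlx6os1, chr6:6869534-6869783, minus strand: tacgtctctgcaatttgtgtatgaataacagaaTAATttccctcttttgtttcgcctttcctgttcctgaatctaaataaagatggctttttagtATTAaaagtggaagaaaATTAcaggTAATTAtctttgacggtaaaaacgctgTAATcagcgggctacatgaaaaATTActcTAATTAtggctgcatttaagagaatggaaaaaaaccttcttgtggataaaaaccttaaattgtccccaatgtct
Dlx6os1, chr6:6861684-6861933, minus strand: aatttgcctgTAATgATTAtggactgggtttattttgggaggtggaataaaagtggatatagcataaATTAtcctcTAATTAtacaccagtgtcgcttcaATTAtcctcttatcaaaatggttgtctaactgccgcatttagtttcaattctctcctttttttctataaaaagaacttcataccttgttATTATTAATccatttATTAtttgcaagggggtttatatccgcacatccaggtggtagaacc
The first held 5 CpG at a GC content of 33.2%, and the second 3 CpG at 34.0%. TAAT or ATTA occurred 9 times in the first and 10 times in the second, overlaps counted, and in neither Dlx1 nor Dlx2. Over all 31396 promoters 54.8% held at least 1, and 0.678% held as many as 9. The palindrome TAATTA, which holds both words, occurred 2 times in the first and 1 time in the second, and 4.81% of all promoters held it. These words hold only A and T, and the median GC content of all promoters was higher, 52.4%. Promoters of type 5 genes, with a median GC content of 42.0%, held TAAT or ATTA in 76.7% and TAATTA in 10.5%. Promoters of similar GC content were not compared. A match is a word in the sequence and no measured binding site. Dlx4os, an antisense gene at Dlx4, and Dlx6os2 each had 7 CpG.

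All 6 Dlx promoter windows belonged to genes of type 3, with 3 to 24 CpG. Of all 31396 promoters, 11164 belonged to genes of type 3. The 6 windows lie in the same 3 segments as the pairs, so they are not 6 separate results. Over all promoters the median was 10 CpG where the gene took type 1 and 7 where it took type 3. It was lower for genes of type 4 with 5, of type 2 with 4 and of type 5 with 2. By the type of the bin at the start site, types 1 and 3 had the same median of 8 CpG. Among type 3 genes the quartiles were 3 and 16 CpG, so Dlx1 and Dlx2 lay above the upper quartile and the second Dlx6os1 start lay at the lower one. A type is given per 5 kb or more, so the segmentation cannot separate a promoter from what lies next to it.

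**Figure D1:**
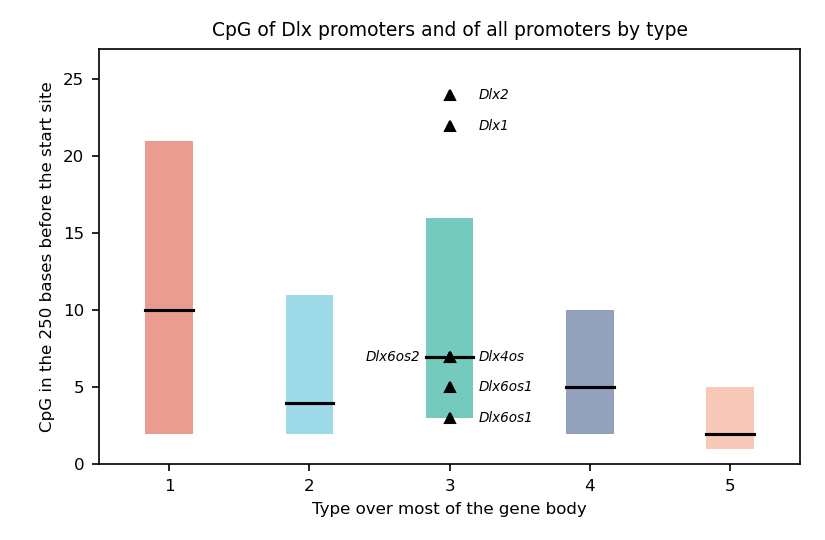
CpG in the 250 bases before the start site (vertical axis) of genes by the type over most of the gene body (horizontal axis). Boxes run from the lower to the upper quartile of all 31396 promoters, bars are medians and triangles are the 6 promoters named after Dlx genes, which range from 3 to 24 CpG within type 3.

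All 6 Dlx genes lay wholly in type 3. Among protein-coding genes, 33.8% took type 3 over most of the body and 24.9% lay in it wholly. Type 1 took 37.2% of them, type 4 took 14.0%, type 5 took 9.53% and type 2 took 5.44%, and none of the 6 Dlx genes had any base in these. The genes are short, from 3.35 kb for Dlx2 to 5.87 kb for Dlx1, and each touched 2 bins of 5 kb. In all 3 pairs the genes also shared 1 unbroken type 3 segment, so the 6 genes amount to 3 places in the segmentation. Of 10834 neighbouring protein-coding gene pairs no farther apart than Dlx3 and Dlx4, whose gap is 15.2 kb, 68.6% had both genes in the same type and 28.6% had both in type 3. At any distance it was 59.5% and 20.4% of neighbouring pairs.

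Dlx1 (chromosome 2, 71528113 to 71533981) and Dlx2 (71543408 to 71546754), the main interneuron pair, lay in a type 3 segment of 375 kb, from 71445001 to 71820000. That was 12.5 times the median type 3 segment of 30 kb. Counted by gene, the median segment was 115 kb over the 5119 protein-coding genes wholly in type 3. Of those, 223 lay in a segment of at least 375 kb. Only 42 of the 9092 type 3 segments (0.462%) were as long, and 1.08% of protein-coding genes lay wholly in one of that length. The pair did not lie at its middle but 24.6% of the way along. Dlx1 stood 83.1 kb from the nearer border and Dlx2 98.4 kb, against a median of 17.1 kb over the 5119 protein-coding genes wholly in type 3. Of these genes 91.9% stood nearer to a border than Dlx1 and 94.5% nearer than Dlx2. Here and below, distances run from the ends of a gene, so long genes tend to stand nearer to a border. Genes as short as the Dlx genes were not compared separately.

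Dlx3 (chromosome 11, 95120117 to 95125296), required in the placenta and in hair, and Dlx4 (95140447 to 95146294) lay in a type 3 segment of 205 kb, from 95060001 to 95265000. As long or longer were 274 type 3 segments (3.01%), and 5.76% of protein-coding genes lay wholly in one of that length. These genes were 1184 of the 5119 wholly in type 3, whose median segment was 115 kb. The middle of the pair stood 35.7% of the way along. Dlx3 was 60.1 kb and Dlx4 80.4 kb from the nearer border.

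Dlx5 (chromosome 6, 6877801 to 6882068) and Dlx6 (6863334 to 6867970), the pair of limb and jaw, lay in the shortest of the 3 segments, 140 kb from 6790001 to 6930000. It was 4.67 times the median type 3 segment, and 676 type 3 segments (7.44%) were as long or longer. Of protein-coding genes, 10.1% lay wholly in a type 3 segment of this length or more. These were 2069 of the 5119 genes wholly in type 3, whose median segment was 115 kb, so by gene such a length was common. The pair stood nearest to the middle, 59.1% of the way along, with Dlx5 47.9 kb and Dlx6 62.0 kb from the nearer border. Dlx5 thus stood closest to a border of all 6 genes, and 79.6% of the type 3 genes stood closer to one.

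**Figure D2:**
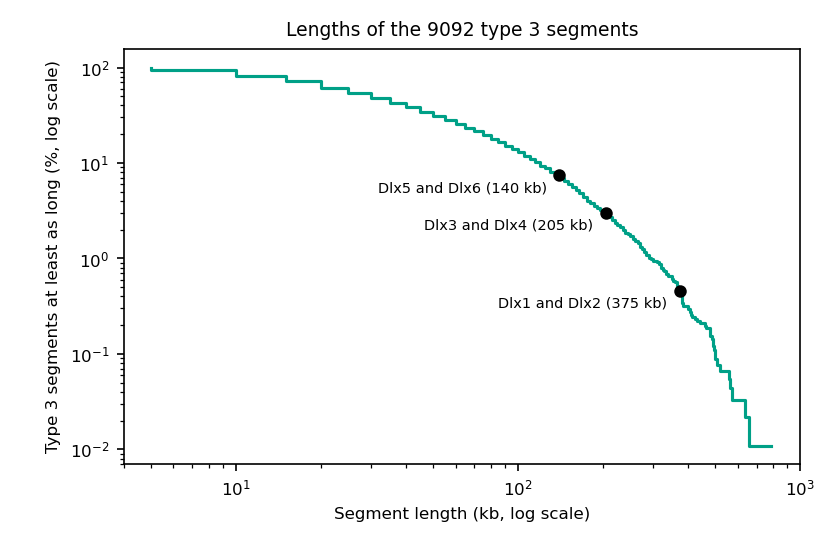
Percent of the 9092 type 3 segments (vertical axis, log scale) that are at least as long as a given length in kb (horizontal axis, log scale). The line is all type 3 segments, and the points are the segments over the Dlx pairs, at 140, 205 and 375 kb, with 7.44%, 3.01% and 0.462% as long.

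The pairs differed in what bordered their segments. The Dlx1 and Dlx2 segment lay between 2 segments of type 1, the arrangement of 29.9% of type 3 segments and of 24.6% of those of 140 kb or more. The Dlx3 and Dlx4 segment had type 4 on its lower side and type 1 on its higher side, as 17.3% of all and 23.0% of the long ones had types 1 and 4. The Dlx5 and Dlx6 segment lay between 2 segments of type 2, as 11.3% of all and 7.12% of the long ones. Of the genes wholly in type 3, 36.1% lay in a segment bordered like that of Dlx1 and Dlx2, 26.9% in one like that of Dlx3 and Dlx4 and 4.22% in one like that of Dlx5 and Dlx6.

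The distance to type 4, the type of most Hox genes, differed accordingly. It was 60.1 kb for Dlx3 and 80.4 kb for Dlx4, 313 kb for Dlx6 and 328 kb for Dlx5, and 928 kb for Dlx1 and 943 kb for Dlx2. Over the genes wholly in type 3 the median was 121 kb. Only 221 of these 5119 genes (4.32%) were farther from type 4 than Dlx1. Type 5 lay between 578 kb, from Dlx6, and 1448 kb, from Dlx1, against a median of 1072 kb.

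**Figure D3:**
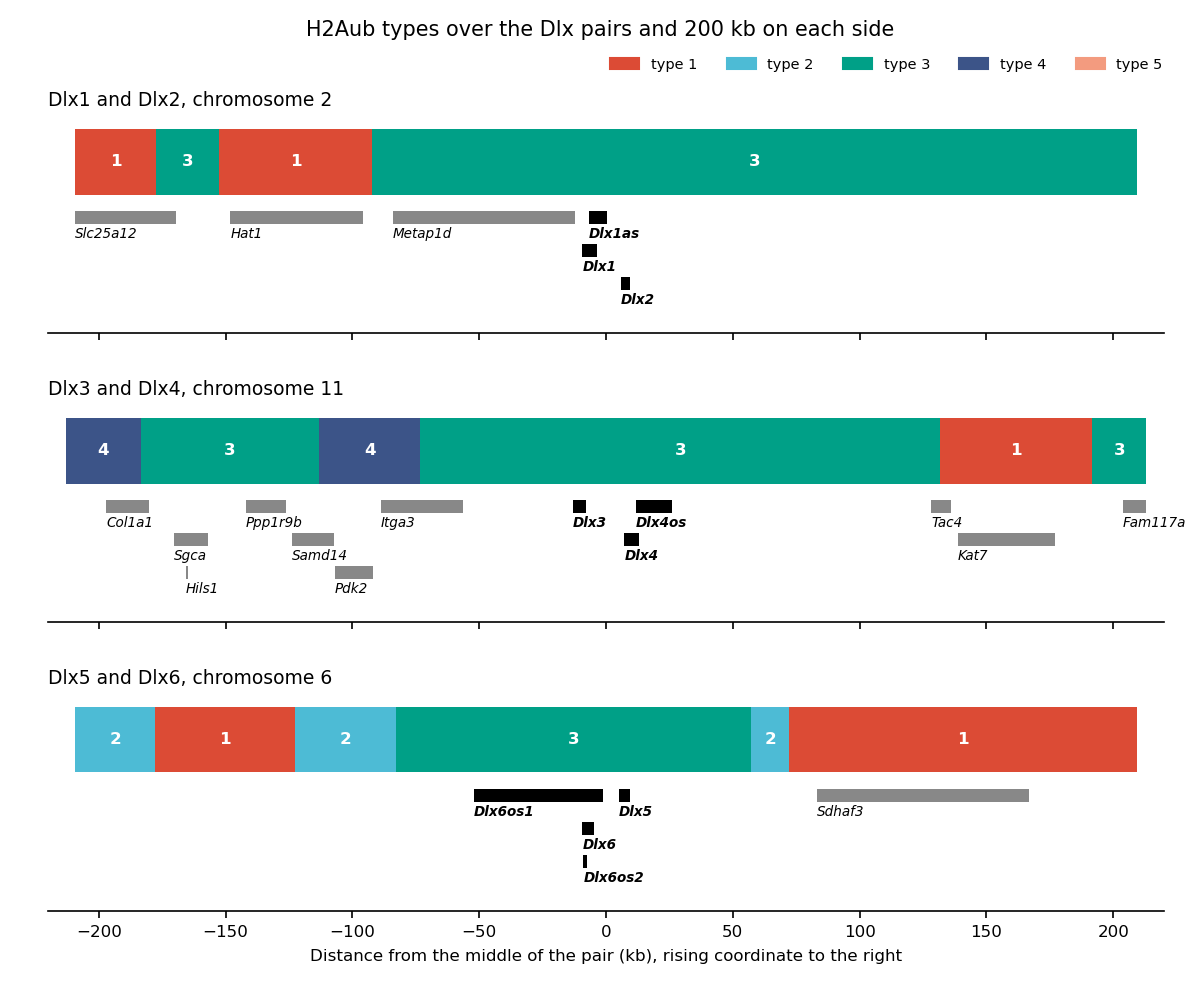
Map of the types over each pair and 200 kb on each side, by distance in kb from the middle of the pair (horizontal axis). Coloured blocks are segments with their type number, black bars are genes named after Dlx and grey bars are other protein-coding genes. Each pair sits in 1 type 3 block, bordered by type 1, by types 4 and 1, and by type 2 from top to bottom, with the higher border of the top block beyond the window.

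Over the whole window of 419 kb, the Dlx1 and Dlx2 locus was 78.1% type 3 and 21.9% type 1, in 4 segments. Of the windows of all protein-coding genes, drawn the same way, 5.18% held as much type 3. The Dlx3 and Dlx4 window of 426 kb was 69.5% type 3, 16.4% type 4 and 14.1% type 1, in 6 segments, and 10.2% of gene windows held as much type 3. The Dlx5 and Dlx6 window was 45.9% type 1, 33.4% type 3 and 20.7% type 2, in 6 segments. Its type 3 share was matched by 49.1% of gene windows and lay close to their median of 32.8%, but 90.5% of gene windows held less type 2.

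Type 3 genes as a class had more type 3 around them, with a median of 54.2% of the window. Against that class the Dlx5 and Dlx6 window was low, since 82.6% of type 3 gene windows held at least as much. As much as the Dlx3 and Dlx4 window was held by 24.2%, and as much as the Dlx1 and Dlx2 window by 13.2%. No Dlx window held type 5, as 67.3% of all gene windows and 85.9% of those of type 3 genes. The windows of Dlx1 and Dlx2 and of Dlx5 and Dlx6 also held no type 4, and 27.2% of all gene windows and 31.0% of those of type 3 genes held neither type. Gene windows had a median of 8 segments.

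**Figure D4:**
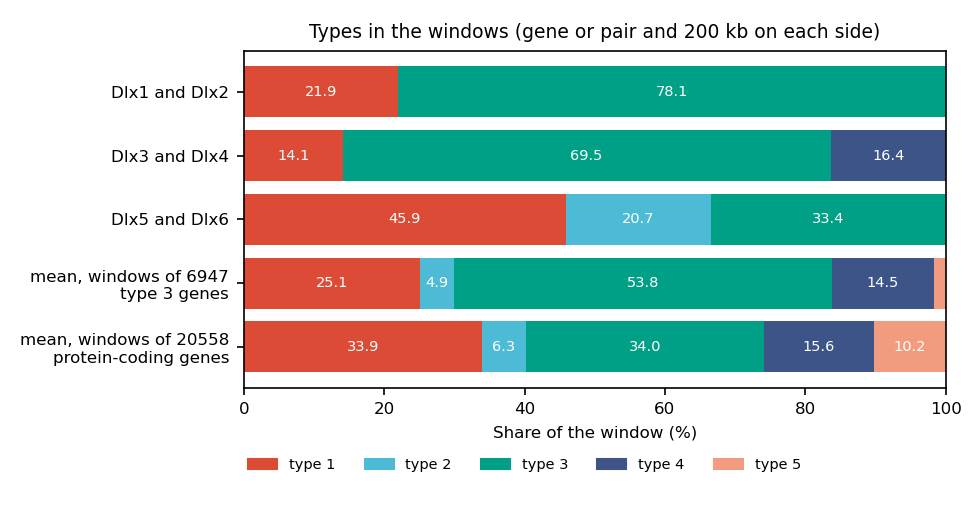
Share of the window in each type in percent (horizontal axis) for the 3 Dlx windows and, as means, for the windows of 6947 type 3 genes and of all 20558 protein-coding genes. Type 3 falls from 78.1% around Dlx1 and Dlx2 to 33.4% around Dlx5 and Dlx6, where types 1 and 2 fill the rest.

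The borders stood in different places against the neighbouring genes. At Dlx1 and Dlx2 the lower border fell between Hat1, a histone acetyltransferase gene wholly in type 1, and Metap1d, a methionine aminopeptidase gene wholly in type 3. Metap1d stood 2.92 kb below Dlx1 and shared its segment. Slc25a12, a mitochondrial carrier gene, was 75.6% type 1 and 24.4% type 3. On the other side no protein-coding gene lay within 200 kb. The next was Itga6, an integrin gene 240 kb away. It was 72.0% type 3, and the higher border, at 71820000, fell within it.

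At Dlx3 and Dlx4 both borders cut a gene. Itga3, another integrin gene, held the lower border and was 52.0% type 3 and 48.0% type 4. Tac4, a tachykinin gene, held the higher border and was 44.9% type 3 and 55.1% type 1. Beyond Itga3, Pdk2, a pyruvate dehydrogenase kinase gene, lay wholly in type 4. The collagen gene Col1a1 was 81.9% type 4. Between them Sgca, Hils1 and Ppp1r9b lay wholly in type 3, and Samd14 was 63.5% type 3. Beyond Tac4, Kat7, a histone acetyltransferase gene, lay wholly in type 1 and Fam117a wholly in type 3. This window was the most crowded, with 10 other protein-coding genes against 3 at Dlx1 and Dlx2 and 1 at Dlx5 and Dlx6.

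At Dlx5 and Dlx6 no other protein-coding gene stood in the segment. Sdhaf3, a gene for assembly of succinate dehydrogenase, stood 73.9 kb above Dlx5 and lay wholly in type 1. Between the type 1 segment that holds Sdhaf3, which starts at 6945001, and the pair's segment stood 15 kb of type 2. On the lower side the next protein-coding gene was Sem1, for a proteasome component, 285 kb away and 82.1% type 1. A type 2 segment of 40 kb lay in between, next to the type 3 segment.

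Of the 14 other protein-coding genes in the windows, 7 took type 3, 5 type 1 and 2 type 4. Over all protein-coding genes these types held 33.8%, 37.2% and 14.0%. The 4 noncoding genes named after Dlx genes all lay wholly in type 3, which 31.0% of all annotated genes took over most of the body. The 4 noncoding genes were Dlx1as, Dlx4os, Dlx6os2 and Dlx6os1, whose 51.1 kb fitted inside the 140 kb segment. Reads of such genes and of the Dlx genes they overlap fall in the same bins, so their types are not separate measurements.

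Each pair is linked on its chromosome to a Hox cluster, a trace of the duplications that made both families. Hoxd stood 3.12 Mb from Dlx2, and its cluster was 99.9% type 4. The stretch in between, in 42 segments, was 56.2% type 3, 20.9% type 4 and 15.9% type 1. Hoxb stood 1.05 Mb from Dlx4. Its cluster was 57.9% type 4 and 42.1% type 3, and the 18 segments between were 50.9% type 3 and 23.9% type 1. Hoxa lay 45.3 Mb from Dlx5 and was 100% type 4, with 11.5% type 3 and 43.3% type 1 in between. The genome as a whole was 19% type 3, so the stretches from Dlx2 to Hoxd and from Dlx4 to Hoxb held more of it and that from Dlx5 to Hoxa less. Each stretch begins inside the pair's own type 3 segment, with 273 kb of it above Dlx2, 119 kb above Dlx4 and 47.9 kb above Dlx5. The windows of protein-coding genes averaged 34.0% type 3, more than the genome. No test was made of these differences.

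Other homeobox families were compared by their share in type 4, the type of 14.0% of protein-coding genes. Of the Irx genes, which pattern heart and neural tissue, 6 of 6 lay in type 4. Of the Msx genes, of which Msx1 and Msx2 act with Dlx genes in the jaw, 3 of 3 did. Msx1 and Msx2 are also counted in the jaw list below, and Hoxc13 in the list of placenta, hair and tooth. Of 39 Hox cluster genes 34 took type 4 and 5 type 3. Another family in the plot of gene lists was split, with 4 of 6 genes in type 4 and 2 in type 3. None of the 6 Dlx genes took type 4. Type 3 was not particular to Dlx among homeobox genes. Of those in the lists below, Gsx1, Gsx2, Lhx8 and Gbx2 also lay wholly in type 3. Alx4, Barx1, Isl1 and Lhx6 lay wholly in type 4. The 6 Irx genes lay in 6 separate segments, whereas most Hox genes share a segment within their cluster, as the Dlx genes do within a pair. The difference between families was not tested.

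**Figure D5:**
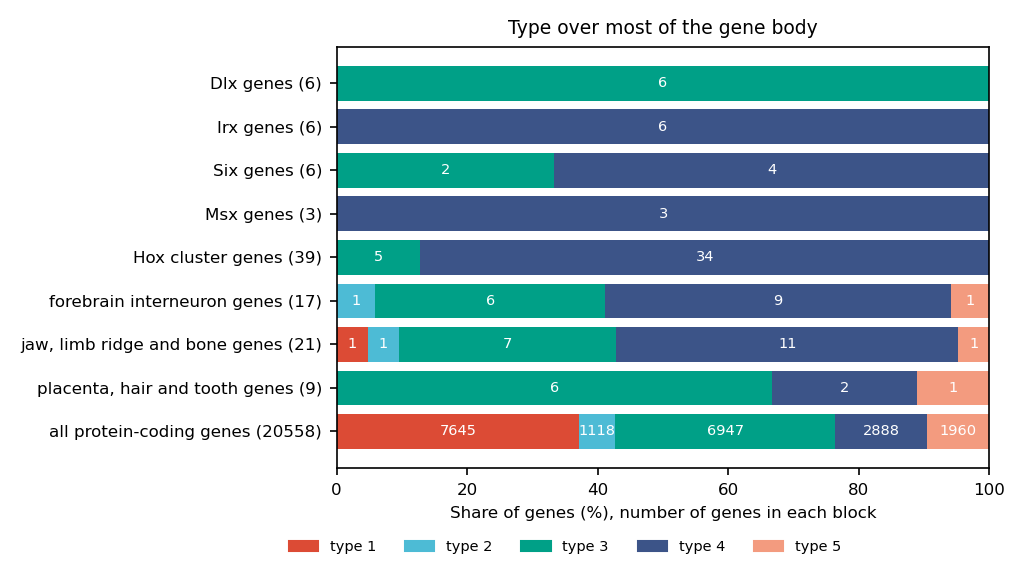
Share of genes in percent (horizontal axis) by the type over most of the gene body, with the number of genes in each block, for the Dlx genes, other homeobox families, lists of genes that act with Dlx genes and all protein-coding genes. The Dlx bar is type 3 throughout, and the Irx and Msx bars are type 4 throughout. Msx1, Msx2 and Hoxc13 are counted both in a family bar and in a list bar.

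Genes that work with Dlx1 and Dlx2 in forebrain interneurons were split. Of 17, 9 took type 4, 6 type 3, and 1 each types 2 and 5. The share in type 3, 35.3%, was close to the 33.8% of all protein-coding genes, and the share in type 4 was 52.9% against 14.0%. In type 4 stood Isl1 and Lhx6, factor genes of ventral forebrain neurons, each wholly, and Gad1, for an enzyme of GABA synthesis, at 95.1%. In type 3, each wholly, stood Gsx1 and Gsx2, homeobox genes upstream of Dlx, Lhx8 and Npas1. Gad2, for the second such enzyme, was 48.0% type 2 and 39.6% type 1. Erbb4, a neuregulin receptor gene, was 73.2% type 5.

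Of 21 genes of jaw, limb ridge and bone, 11 took type 4, 7 type 3 and 3 another type. Type 3 again held about the share of all protein-coding genes, 33.3% against 33.8%, and type 4 held 52.4% against 14.0%. Edn1, the signal that turns on Dlx5 and Dlx6 in the lower jaw, lay wholly in type 3, as did Bmp4, Fgf8, a signal of the limb ridge, and Gbx2. Wholly in type 4 stood the homeobox genes Alx4 and Barx1 and the ligand gene Bmp2. Among the genes of another type were Mef2c, a factor gene wholly in type 5, and Trp63, the epidermal regulator, wholly in type 2.

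Of 9 genes of placenta, hair and tooth, where Dlx3 acts, 6 took type 3, 2 type 4 and 1 type 5. Over all protein-coding genes these types held 33.8%, 14.0% and 9.53%. Gcm1, which drives the placental labyrinth, Foxn1, a hair factor gene, and the hair follicle keratin gene Krt25 lay wholly in type 3. Dspp, a dentin gene, was 53.1% type 3 and 45.6% type 4. Hoxc13 lay wholly in type 4, and the enamel gene Ambn wholly in type 5. Esx1 and Amelx were not analysed here.

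The order of types over 200 kb on each side of a pair's middle, in 80 bins, was also compared between pairs and with other genes, in the better of both orientations. Dlx1 and Dlx2 matched Dlx3 and Dlx4 in 53 bins (66.25%), and Dlx5 and Dlx6 in 45 (56.25%). Dlx3 and Dlx4 matched Dlx5 and Dlx6 in 38 (47.5%). Most of the equal bins were type 3, with 46, 28 and 26 in the same order. Over all other protein-coding genes the median match was 38.8% of bins with Dlx1 and Dlx2, 36.3% with Dlx3 and Dlx4 and 32.5% with Dlx5 and Dlx6. Those genes are of all types, while every Dlx pair is centred in type 3. A higher match between pairs was thus largely set by the shared type, and no median over type 3 genes alone is given.

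The genes most like Dlx1 and Dlx2 in this order were Nudt8 (76 of 80 bins), Dll1, a Notch ligand gene, and Neurl1a (75 each), and Catsper3 and Gja3 (74 each). Most like Dlx3 and Dlx4 were Styxl1 (69), Cyp46a1, Gfod1 and Il12rb1 (68 each) and Ccdc92 (67). Most like Dlx5 and Dlx6 were Tent5c (66), Oprd1 and Tnfaip8 (65 each) and Nanp and Reep1 (63 each). All 15 were themselves of type 3, which was largely set by the choice, since the profiles they match are centred on a type 3 segment. A match of at least 80% was found in 412 of 20523 genes for Dlx1 and Dlx2 and 54 of 20508 for Dlx3 and Dlx4. For Dlx5 and Dlx6 it was 3 of 20531, so the surroundings of this pair had the fewest counterparts. Which feature of its surroundings accounts for that was not tested.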

How the data were processed

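The authors deposited the segmentation as a list of regions with a category label, the type from 1 to 5. It names ChromHMM, whose version and input were not given in the sources used here, nor was the meaning of each type. The tools in the submitters' processing notes are deepTools 3.0.2, Picard 2.8.0, Bowtie2 2.3.4.3 and Trim Galore 0.4.5, with the build mm10. All 31563 segments start and end on multiples of 5 kb and cover chromosomes 1 to 19. There are no counts, so depth is unknown.

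Each gene in a RefSeq table on GRCm38.p6 was given the type over most of its body, with Python 3.11.15, pandas 2.3.3 and numpy 2.4.6. The table gives no strand. The scripts were tested on simulated data. Of 49997 genes, 46709 lay on the segmented chromosomes. The Dlx genes, the gene lists and the homeobox families were chosen with earlier results of these data known.

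Named were all 6 Dlx genes, noncoding Dlx genes, protein-coding genes overlapping a window and, per list, all genes of types held by 5 or fewer and otherwise the first 4 in alphabetical order. Per pair the 5 genes most alike in type order were named, leaving out genes within 500 kb of the pair and keeping 1 gene per 500 kb. Some genes this rule names are not reported here. Itga6 and Sem1 were named after their types were seen. Alternatives were other window sizes, ways of assigning a gene or promoter to a type and gene sets. Protein sequences were not used here, so the planned comparison of Dlx proteins was not made.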

Additional observations from a re-analysis of the deposited data

How the results depend on the processing

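The 6 Dlx genes lay wholly in type 3 in 30 of 30 alternatives, which says little on stability: each body covers 2 bins of 1 type and the nearest border is 47.9 kb away, so the middle bin, the bin at either end or 5 kb added on each side could give nothing else. Merging touching segments of 1 type could not change segment lengths or border distances either, as both were measured on segments already merged. In 6 of 6 alternatives the counts of the gene lists stayed within 1.5 times. Of 68 alternatives 12 moved a value, judged for shares by a 95% binomial interval over 5 kb bins (windows), gene pairs or genes, and for median CpG by the 95% interval of the median. The 85 or 86 bins of a window come from only 4 to 6 segments and are not independent. For windows the interval is thus only a yardstick and measures no real spread. Type 3 around Dlx1 and Dlx2, 78.1% with 200 kb on each side, was 92.3% with 100 kb and 29.4% when only segments wholly inside the window counted, because their 375 kb segment reaches past it. Around Dlx3 and Dlx4, 69.5% became 82.4% with 100 kb and 58.6% with 500 kb. Around Dlx5 and Dlx6, 33.4% became 64.0% with 100 kb, 23.1% with 500 kb and 56.0% with whole segments only. The share of neighbouring genes of the same type was 59.5% at any distance against 68.6%, and the share of genes in type 3 was 31.0% over all annotated genes against 33.8%. By the bin of the start site instead of the body, the median CpG of protein-coding promoters was 11 against 13 in type 1, 5 against 9 in type 2 and 13 against 11 in type 3, so the order of types 1 and 3 reversed. Over all promoters types 1 and 3, at 10 and 7 by the body, were both at 8. No paired analysis was possible because the segmentation holds no value per library and its results come from no test. A change inside 5 kb cannot be seen.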
